A study of Mus musculus with 4 samples.

Results

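The AP-1 and Egr immediate early factors examined here are 10 genes: the Fos family (Fos, Fosb, Fosl1 and Fosl2), the Jun family (Jun, Junb and Jund) and the zinc-finger factors Egr1, Egr2 and Egr3. They were chosen by symbol, with the probe of highest mean signal standing for each gene, and are 10 of 29675 genes on the array. All 10 were found, and 9 of them (all but Egr3) were well above background on all 4 arrays, as were 17116 of all genes. Mouse fibroblasts of the Swiss 3T3 line were cocultured with mast cells grown from wild-type bone marrow in IL-3, and their RNA was read on 1-colour Agilent arrays, which report a fluorescence signal for each probe. The 4 groups are Lpar1-/- fibroblasts at 24 h (KO 24 h), Lpar1+/+ fibroblasts at 24 h (WT 24 h), Lpar1-/- fibroblasts at 0 h (KO 0 h) and Lpar1+/+ fibroblasts at 0 h (WT 0 h). Lpar1 encodes a receptor for lysophosphatidic acid, and the KO line is 1 clone grown from a single CRISPR-edited cell, so clone and genotype cannot be told apart. The coculture medium held 100 ng/ml of the mast cell growth factor SCF, and each array carried RNA pooled from 3 samples. The labels do not say whether mast cells were in the 0 h samples. Nor do they say by which of the named ways (trypsin and reseeding, or CD117 beads) each sample was freed of mast cells. On both 0 h arrays all 14 mast cell markers examined below were well above background.

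AP-1 is a dimer of basic leucine zipper proteins. Fos family members must pair with a Jun family member, whereas Jun proteins can also pair with each other, and the dimers bind TGANTCA-like sites in genes of proliferation, matrix turnover and inflammation. Egr factors bind GC-rich sites. Fos, Fosb, Jun, Junb and the Egr genes are classic immediate early genes, transcribed within minutes of a growth factor, serum or stress signal without new protein synthesis and then shut off quickly; Fosl1 and Fosl2 usually follow later and persist. Lysophosphatidic acid, a lipid abundant in serum, is among the known inducers of such genes in fibroblasts, and SCF acts likewise on mast cells through the receptor Kit.

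Levels are given as log2 signal relative to the array's own 75th percentile, so 0 is the 75th percentile and 1 unit is 2-fold. Each group is 1 array, so no difference has a replicate check, there is no test, and no p-value is given. Genes that differed 2-fold or more are called higher or lower, a description of the arrays and not of the conditions. The standard error (SE) comes from the scanner software's spot error, about 10% of a bright signal, and covers neither culture nor labelling. It was 0.20 or 0.21 for every member's difference between a pair of arrays unless another is given. Of the non-control spots, 62.1% to 72.7% per array were well above background and 0 were saturated. The Lpar1 probe (chr4:58499672-58499731 of mm9) read -3.61 on KO 24 h, -3.15 on WT 24 h, -3.43 on KO 0 h and -3.20 on WT 0 h, so the labelled knockout is not visible in it; whether the probe lies in edited sequence is not stated, so it does not check the labels.

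The mast cell and pan-leukocyte markers had far lower medians at 24 h than at 0 h in both genotypes. Of 14 mast cell markers, 14 exceeded background clearly on both 0 h arrays and 10 on each 24 h array, with a median level of -4.44 on KO 24 h, -4.32 on WT 24 h, 4.33 on KO 0 h and 3.32 on WT 0 h. Their summed signal (log2) was 1.19, 0.20, 8.85 and 8.31 on those arrays. The mast cell genes Gata1, Ms4a2 and Tpsab1 were not well above background on either 24 h array, nor was Mcpt4 on KO 24 h or Kit on WT 24 h. The medians of 15 pan-leukocyte markers were -4.60, -4.48, 3.15 and 1.92 on KO 24 h, WT 24 h, KO 0 h and WT 0 h, and those of 20 fibroblast markers were 3.26, 3.20, 1.85 and 2.87. The fibroblast marker Thy1 read 4.12 on KO 24 h and 3.73 on KO 0 h, and was near or below background in WT, at -7.41 (not well above background) at 24 h and -7.02 at 0 h. In such mixed RNA, fewer cells of a type and less RNA per cell cannot be told apart.

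Promoter sequences are shown for the 4 measured members that lay furthest below their 0 h level in KO, namely Fosb, Fos, Egr2 and Junb. They are the 250 bases before the RefSeq start site on GRCm38.p6, read 5′ to 3′ on the gene's strand, with capitals marking the CRE half-site TGACG or its complement, the CArG box (the SRF site, where Egr2 has CCATATATGG) and the TATA box TATAAA. Fosb lies on chr7:19310046-19310295 (minus strand), Fos on chr12:85473640-85473889 (plus), Egr2 on chr10:67537619-67537868 (plus) and Junb on chr8:84978749-84978998 (minus).
Fosb: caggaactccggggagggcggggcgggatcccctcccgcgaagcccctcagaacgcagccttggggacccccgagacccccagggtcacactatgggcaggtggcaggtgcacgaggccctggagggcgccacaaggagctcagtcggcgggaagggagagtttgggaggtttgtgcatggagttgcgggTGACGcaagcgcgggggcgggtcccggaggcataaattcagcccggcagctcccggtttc
Fos: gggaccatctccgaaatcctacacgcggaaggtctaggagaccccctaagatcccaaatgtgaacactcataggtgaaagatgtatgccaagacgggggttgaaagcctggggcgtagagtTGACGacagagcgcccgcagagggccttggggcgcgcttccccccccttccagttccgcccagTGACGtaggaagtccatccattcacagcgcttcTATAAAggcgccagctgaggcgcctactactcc
Egr2: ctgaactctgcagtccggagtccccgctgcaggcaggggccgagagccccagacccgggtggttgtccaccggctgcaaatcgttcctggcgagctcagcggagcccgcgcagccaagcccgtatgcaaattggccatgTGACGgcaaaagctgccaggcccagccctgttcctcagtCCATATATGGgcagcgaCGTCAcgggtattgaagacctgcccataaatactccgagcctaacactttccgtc
Junb: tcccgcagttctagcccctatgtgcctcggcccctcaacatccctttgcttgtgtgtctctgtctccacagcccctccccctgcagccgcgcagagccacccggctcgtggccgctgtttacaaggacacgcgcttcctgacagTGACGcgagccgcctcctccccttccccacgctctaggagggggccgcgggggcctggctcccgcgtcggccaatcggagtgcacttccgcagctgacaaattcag

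All 4 of these windows held TGACG, the site of CREB and ATF family factors, against 17.8% of 32851 RefSeq windows of the same 250 bases, searched on both strands. The match stood at -60 to -56 in Fosb, at -129 to -125 and -66 to -62 in Fos, at -111 to -107 and, on the other strand, -55 to -51 in Egr2, and at -106 to -102 in Junb, counted from the start site. The CArG box, found in 1.47% of windows, lay at -72 to -63 in Egr2, and TATAAA, found in 12.4%, at -33 to -28 in Fos. The Egr motif GCGNGGGCG, held by 4.70% of windows, was found at -50 to -42 in Fosb. Neither the AP-1 site TGANTCA (6.75% of windows) nor the full CRE site TGACGTCA (1.55%, which contains TGACG) was found in these 4 windows, and CCAAT (33.8%) was found in Egr2 and Junb. Of 9 members looked up, 7 had a window in the RefSeq table, and those of Jun, Fosl2 and Jund did not hold TGACG. Egr1 was not looked up, so the tally says nothing of it. Egr2 has 5 windows in that table, of which the one shown and 2 overlapping ones each held 4 matches and the others 1 or 0, so its matches reflect that choice. The genes were chosen by their array values and the motifs with the sequences in view, and a match is a description of letters, not of binding.

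**Figure D1:**
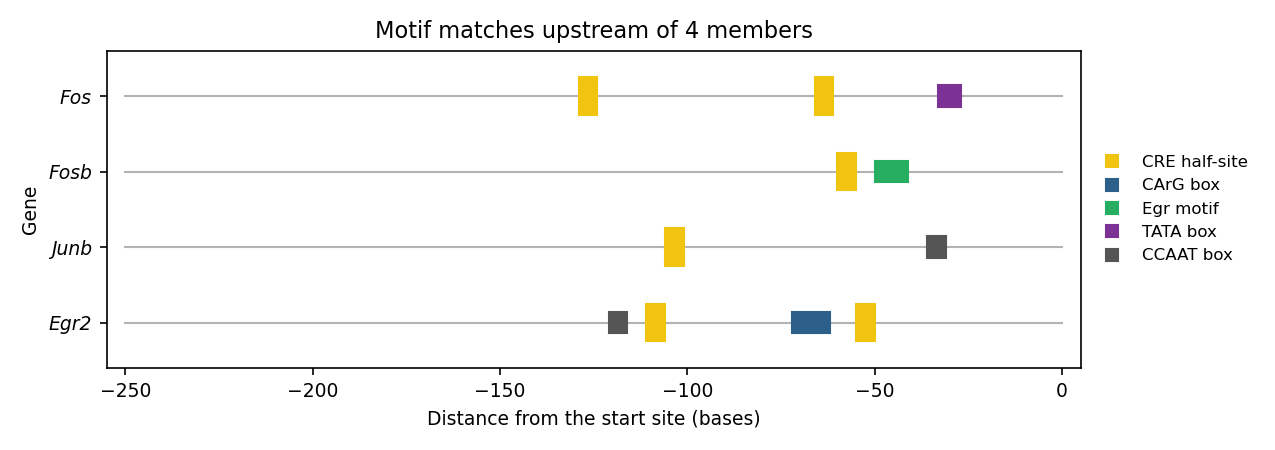
Positions of sequence motif matches (colours) in the promoter windows of Fos, Fosb, Junb and Egr2, in bases from the RefSeq start site (x axis). The CRE half-site stands in the windows of Fosb, Fos, Egr2 and Junb, between -129 and -51.

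The comparison of 24 h with 0 h is not of fibroblasts alone over time, as mast cell markers were low at 24 h and high at 0 h. Their median levels were -4.44 (KO) and -4.32 (WT) at 24 h, and 4.33 and 3.32 at 0 h. In KO, 7 of 9 measured members were at least 2-fold lower at 24 h and 0 higher, where 10.9% of all 17861 measured genes were lower and 9.57% higher. In WT, 7 of 10 were lower and 0 higher, where 5.57% of 19197 genes were lower and 15.8% higher. Of the 7 members with a mean signal above 0 over the arrays, 5 were lower in KO and 5 in WT, where 5.09% and 2.88% of such bright genes were lower and 9.26% and 2.63% higher. The median member difference was -2.43 in KO and -1.71 in WT, beside medians of 0.23 and 0.28 over all genes. The central 90% of genes is not a replicate spread, but for scale their differences ran from -1.77 to 1.22 in KO and from -1.10 to 1.57 in WT (5th to 95th percentile). Fos, Fosb, Jun, Junb, Egr1 and Egr2 passed in both genotypes; the 7th was Jund in KO and Fosl1 in WT. With quantile normalization 9 of 10 members were lower in WT, Jund (-1.09) and Egr3 (-1.23) among them, beside 1147 of 19197 genes. The mast cell markers lay in the same direction, all 10 measured ones being at least 2-fold lower at 24 h in each genotype, with medians of -8.14 in KO and -7.59 in WT; their part in the members' differences was not tested.

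**Figure D2:**
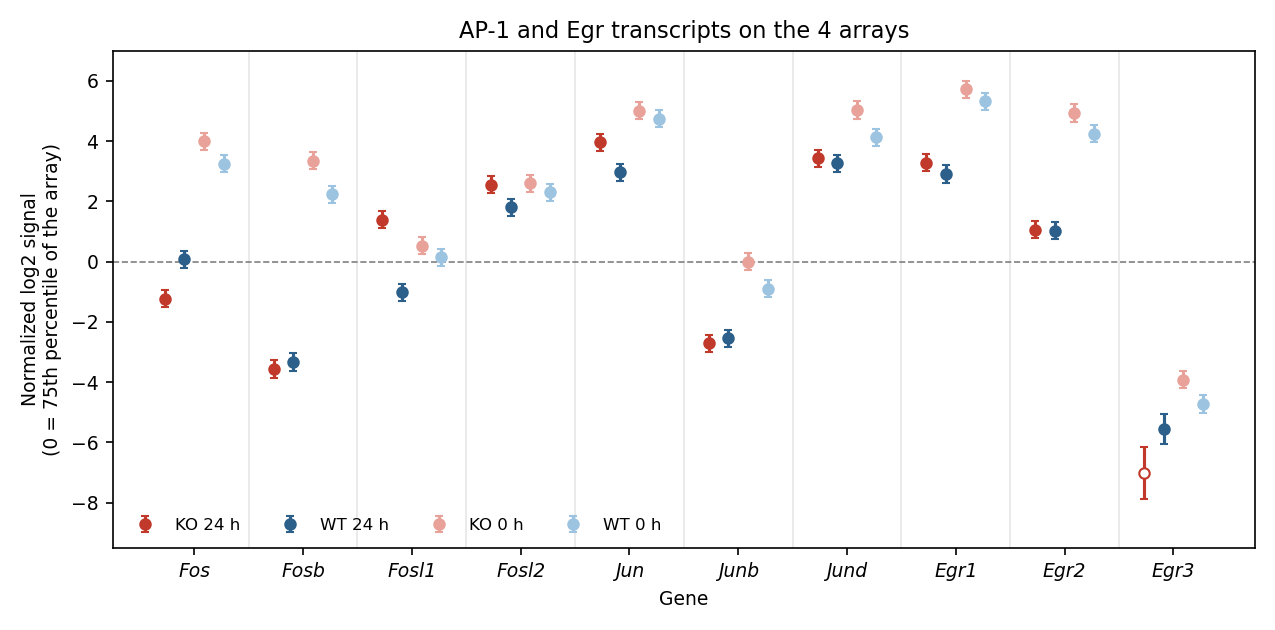
Log2 signal relative to each array's 75th percentile (y axis) for the 10 genes on the KO 24 h, WT 24 h, KO 0 h and WT 0 h arrays, with error bars of 1.96 SE of spot error and hollow points for values not well above background. All genes but Fosl1 and Fosl2 lie lower on both 24 h arrays than on both 0 h arrays, Egr3 with a hollow point on KO 24 h. Fosl1 is highest on KO 24 h.

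Fosb, a partner for Jun proteins with a strong activating domain, differed most. Its probe (chr7:19888168-19888227, mm9) read -3.57 on KO 24 h and -3.34 on WT 24 h, against 3.35 on KO 0 h and 2.23 on WT 0 h. Both 24 h arrays were far below both 0 h arrays, and at 24 h the KO and WT values did not differ beyond 1.96 SE. The difference was -6.92 (122-fold lower) in KO and -5.57 (47.6-fold lower) in WT; 117 of 17861 genes in KO and 113 of 19197 in WT had a lower difference. With normexp, another background correction, the differences were -5.96 in KO and -4.82 in WT.

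Fos, the prototype immediate early gene, was read by a probe spotted 10 times (chr12:86817900-86817959, mm9), which gives it a within-array spread that other members lack. It averaged -1.23 ± 0.083 on KO 24 h (SD, n = 10 spots), 0.08 ± 0.080 on WT 24 h (n = 10), 4.00 ± 0.053 on KO 0 h (n = 9, with 1 outlier spot left out) and 3.25 ± 0.025 on WT 0 h (n = 10). The ranges of the spots did not overlap between any of the 4 arrays; spots of 1 array share its RNA and are not replicates. The difference of 24 h from 0 h was -5.23 (37.5-fold lower) in KO and -3.17 (9.01-fold lower) in WT.

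Fosl1, which encodes Fra-1, a Fos protein without the strong activating domain of Fos, differed over time in opposite directions. Its level was 1.39 on KO 24 h, -1.01 on WT 24 h, 0.53 on KO 0 h and 0.15 on WT 0 h (probe chr19:5455496-5455555). The KO 24 h array was highest and the WT 24 h array lowest, with the 0 h arrays in between and not differing beyond 1.96 SE. The difference of 24 h from 0 h was 0.86 in KO (1.82-fold higher, under the 2-fold call) and -1.16 in WT (2.23-fold lower). The KO value depended on the scale, becoming -0.54 when the arrays were centred on the median level of the fibroblast markers. That centring takes off more than the markers' own median difference of 0.80 in KO. Fosl2, which encodes Fra-2, read 2.55 on KO 24 h, 1.80 on WT 24 h, 2.60 on KO 0 h and 2.31 on WT 0 h (chr5:32460076-32460135), a span of less than 2-fold. Its second, dim probe (chr5:32455088-32455147) read -4.86, -4.04, -4.28 and -4.74 on the same arrays and placed WT 24 h above KO 24 h, the opposite order, so a direction for Fosl2 was not settled.

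The Jun family supplies the partners of the Fos proteins. Jun read 3.96 on KO 24 h, 2.96 on WT 24 h, 5.01 on KO 0 h and 4.75 on WT 0 h (chr4:94716928-94716987), which was 2.07-fold lower at 24 h in KO (-1.05) and 3.45-fold lower in WT (-1.79). Jun was thus lower on both 24 h arrays than on both 0 h arrays, by the smaller margin in KO. Junb, which often restrains Jun-driven transcription, read -2.71 on KO 24 h, -2.54 on WT 24 h, -0.0022 on KO 0 h and -0.90 on WT 0 h (chr8:87501881-87501940). It was 6.53-fold lower in KO (-2.71) and 3.12-fold lower in WT (-1.64). Jund, the member commonly present in resting cells, read 3.42 on KO 24 h, 3.26 on WT 24 h, 5.03 on KO 0 h and 4.13 on WT 0 h (chr8:73224436-73224495). Its difference was -1.61 in KO and -0.87 in WT, of which only the first passed 2-fold.

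The Egr genes encode zinc-finger activators that are induced in parallel to Fos. Egr1 read 3.29 on KO 24 h, 2.91 on WT 24 h, 5.72 on KO 0 h and 5.33 on WT 0 h (chr18:35024395-35024454). Its difference was nearly the same in both genotypes, -2.43 (5.39-fold lower) in KO and -2.42 (5.36-fold lower) in WT. Egr2 read 1.05 on KO 24 h, 1.03 on WT 24 h, 4.93 on KO 0 h and 4.25 on WT 0 h (chr10:67004798-67004857), which was 14.7-fold lower in KO (-3.88) and 9.33-fold lower in WT (-3.22). For both genes the 24 h arrays did not differ from each other beyond 1.96 SE. Egr3 read -7.03 on KO 24 h (not well above background), -5.54 on WT 24 h, -3.91 on KO 0 h and -4.72 on WT 0 h (chr14:70479222-70479281). It was at least 6.83-fold lower on KO 24 h than on KO 0 h, where the dim array is given the probe's own level or, if higher, that of the dimmest probe clearly over background; in WT the difference was -0.82 with an SE of 0.29, and normexp correction left -0.0096 of it.

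**Figure D3:**
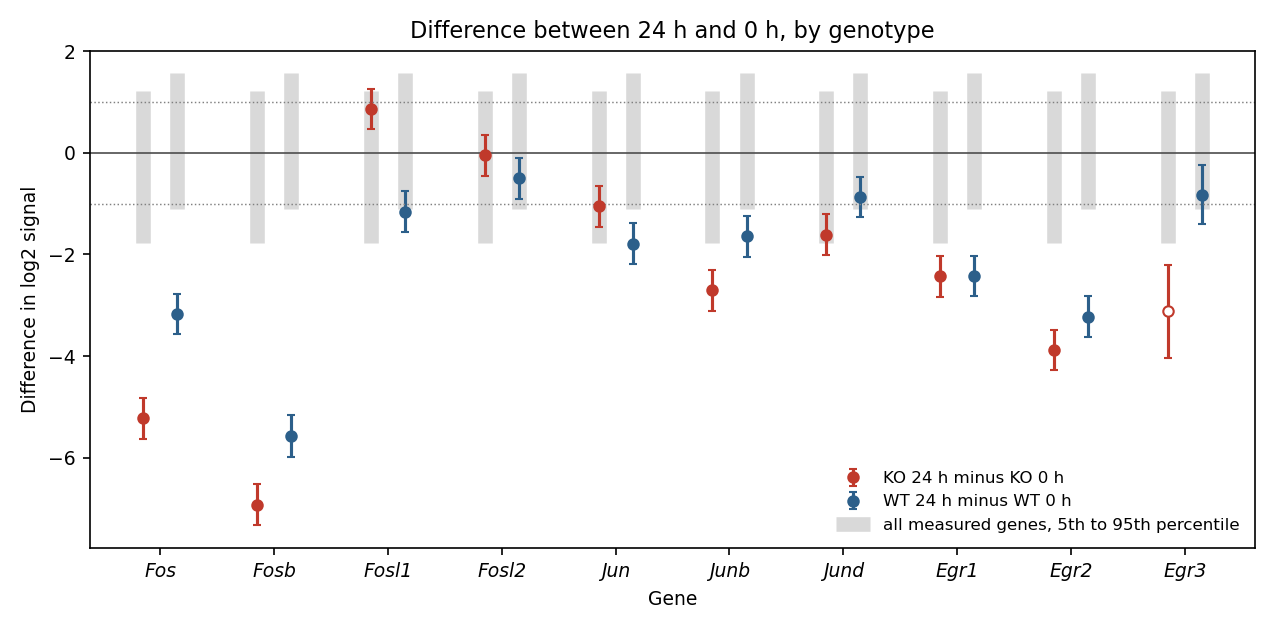
Difference of 24 h from 0 h (log2) for each of the 10 genes in KO and in WT, with bars of 1.96 SE of spot error; hollow points were not well above background on 1 array. Fosb is lowest in both, at -6.92 in KO and -5.57 in WT, and Fosl1 lies on opposite sides of 0.

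The comparison of genotypes at 24 h asks how the factors stood in the 2 fibroblast lines when the mast cell markers were low on both arrays, with a median difference of 0.57 over 9 of them. Of 9 measured members, 1 was at least 2-fold higher in KO (Fosl1) and 1 lower (Fos), where 5.79% of 17291 genes were higher and 12.2% lower; among bright genes the shares were 3.70% and 3.28%. Fosl1 was 5.30-fold higher in KO (2.40), a difference exceeded by 208 of 17291 genes, and Fos was 2.49-fold lower (-1.31). Jun stood at 0.996, 1.99-fold higher and just under the call. Fosl2 stood at 0.74 by its bright probe and -0.82 by its dim one. The others lay between -0.23 (Fosb) and 0.38 (Egr1), none beyond 1.96 SE; that does not show them equal in the 2 lines. Egr3 was at least 2.21-fold lower on KO 24 h than on WT 24 h. The member median was 0.16, beside -0.09 over all genes.

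At 0 h the KO and WT arrays, both with high mast cell marker levels (medians of 4.33 and 3.32), were compared. All 10 members were higher in KO 0 h than in WT 0 h, from 0.26 (Jun) to 1.12 (Fosb), with a median of 0.71, beside 0.05 over 20317 genes. Only Fosb passed 2-fold (2.18-fold), where 9.27% of genes were higher and 4.10% lower; of the 7 bright members 0 passed, where 1.76% of bright genes were higher and 3.18% lower. Jund and Junb, at 0.90 each (1.87-fold), Egr3 at 0.81, Fos at 0.74 and Egr2 at 0.68 came next. Egr1 at 0.39, Fosl1 at 0.38, Fosl2 at 0.29 and Jun at 0.26 followed, and none of these 4 exceeded 1.96 SE. The mast cell and leukocyte markers were also higher in KO 0 h, with medians of 0.97 over 14 markers and 1.05 over 15, and the fibroblast markers lower, with a median of -0.37 over 19; their part in the members' differences was not tested. Centring on the fibroblast markers takes off their median level on each array, 1.85 on KO 0 h and 2.87 on WT 0 h. Those levels lie further apart than the markers' own median difference of -0.37, so this scale moves genes by more than that difference. With the arrays so centred, which moves the median of all genes to 1.07, all 10 members were at least 2-fold higher. So were 11191 of all 20317 measured genes.

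**Figure D4:**
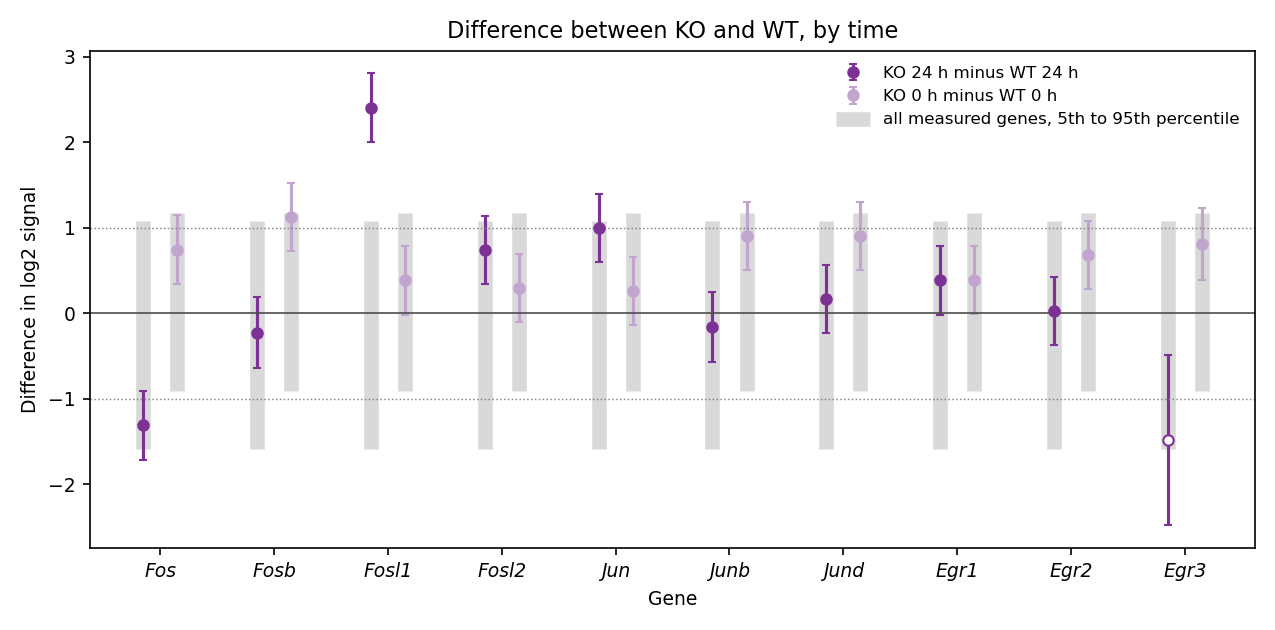
Difference of KO from WT (log2) at 24 h and at 0 h for each of the 10 genes, with bars of 1.96 SE of spot error; hollow points were not well above background on 1 array. Fosl1 at 24 h stands at 2.40, and Fos lies at -1.31 at 24 h and 0.74 at 0 h.

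The change over time in KO minus that in WT sets the 24 h and 0 h differences of the genotypes against each other. Its 0 h arrays also differed in cell markers, with KO minus WT medians of 0.97 (mast cell) and 1.05 (leukocyte). Of 9 measured members, 3 were at least 2-fold lower in the KO change minus the WT change (Fos, Fosb and Junb) and 1 higher (Fosl1). Of all 17116 measured genes, 13.3% were lower and 4.77% higher. Of the called members only Fos and Fosl1 were bright. Among all bright genes 2.94% were lower and 3.64% higher. Fos had -2.06 (SE 0.29), Fosb -1.35 (SE 0.30), Junb -1.06 and Fosl1 2.02, the last exceeded by 84 genes. Jund, at -0.74, and Egr2, at -0.66, were below 0 and under the call. Jun stood at 0.73 and Fosl2 at 0.45 by its bright probe, with -1.29 by its dim one. Centred on the median level of the fibroblast markers, Jun turned to -0.34 and Fosl2 to -0.62. That scale moved the median of all genes from 0.04 to -1.04, whereas the markers' own median difference here was only 0.20. On that scale 6 of 9 members were at least 2-fold lower and 0 higher, beside 9063 and 79 of all 17116 measured genes. In the reported analysis the difference for Egr1 was -0.0089. The leukocyte markers also had a negative median here, -0.98 over 11, and the mast cell markers -0.25 over 9, at low levels on the 24 h arrays; their part was not tested.

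Other immediate early genes, 24 entries that include phosphatases, nuclear receptors and RNA decay factors, were often lower at 24 h. This list and those that follow were chosen with earlier results of these data known. In KO, 11 of 22 measured genes were at least 2-fold lower at 24 h and 0 higher (median -0.92), beside 10.9% of all measured genes lower and 9.57% higher. In WT 11 of 21 were lower and 0 higher (median -1.04), beside 5.57% and 15.8% of all genes; 1 of the 11, Rhob, had a second probe at -0.58. The lowest in KO were Csrnp1, a nuclear factor, at -4.09, the nuclear receptor gene Nr4a2 at -3.71 and Ier2 at -2.80. In WT they were Csrnp1 at -4.01, the nuclear receptor gene Nr4a1 at -3.02 and Ier3 at -2.69. Egr4, the remaining Egr family gene, was at least 31.3-fold lower in KO and at least 7.49-fold lower in WT at 24 h. Not every gene of the list followed: Maff, a small Maf protein gene, was at 0.87 in KO, and Gadd45b, a stress-response gene, was at 0.43 in WT. Between genotypes at 24 h, 4 of 21 were higher in KO and 1 lower, beside 5.79% and 12.2% of all genes. Ccn2, a matricellular protein gene, led with 3.56, followed by Nr4a1 at 1.21 and Klf10, a zinc-finger repressor gene, at 1.13, and Btg2, an antiproliferative gene, was lower at -2.43. These genes differed in the same directions at 0 h, by 2.38 (Ccn2), 0.70 (Nr4a1), 0.52 (Klf10) and -0.40 (Btg2).

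**Figure D5:**
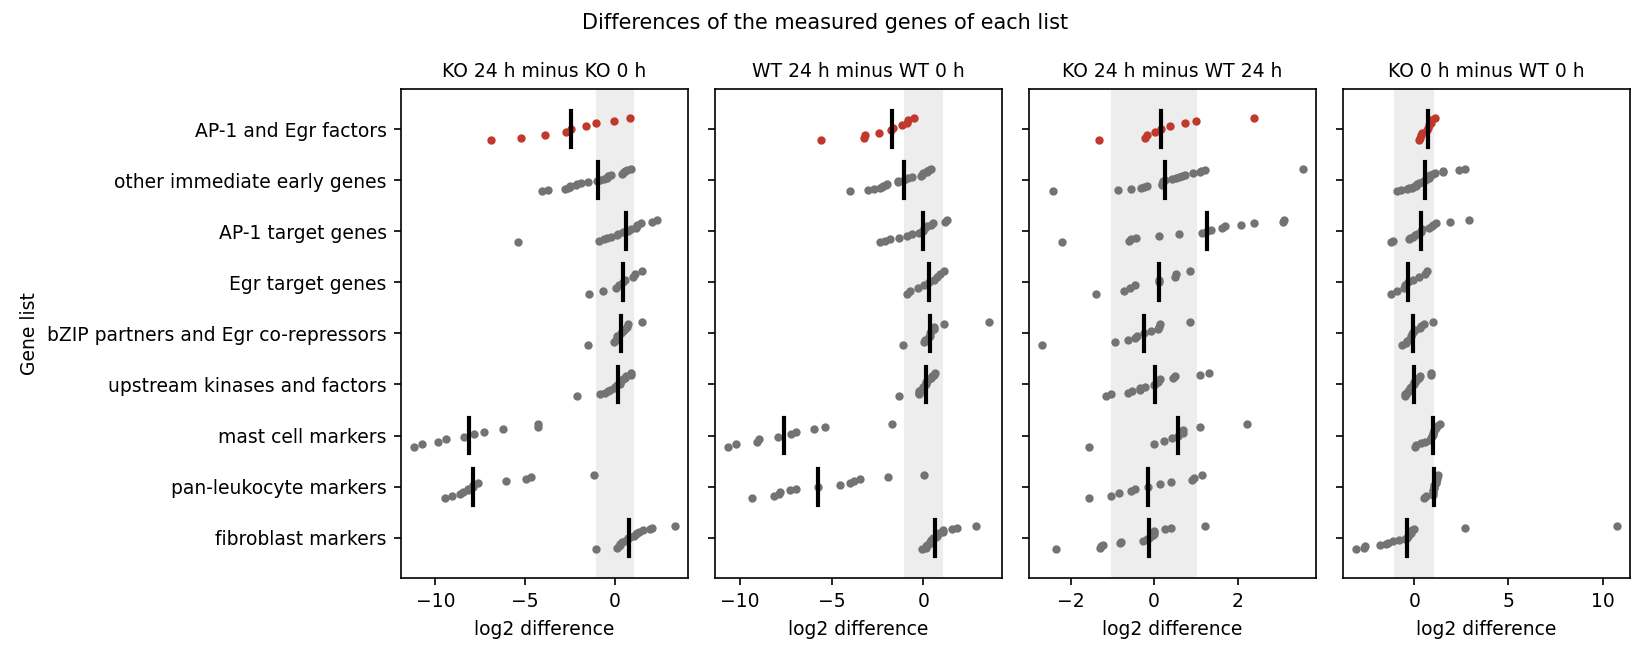
Difference (log2) of each measured gene in 9 lists, as points, with the list median as a bar and less than 2-fold shaded, in 4 comparisons. The AP-1 target genes lie mostly above 0 in the 24 h comparison of KO with WT, with a median of 1.27.

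AP-1 target genes, 16 entries, were mostly higher in KO at 24 h. Of 15 measured, 9 were at least 2-fold higher in KO 24 h than in WT 24 h and 1 was lower, beside 5.79% and 12.2% of all measured genes, and the median was 1.27 against -0.09. Of the 9, Cd44, a hyaluronan receptor gene, passed by its brightest probe (1.37), while its 4 probes ran from 0.84 to 1.37. Plau, the urokinase gene, read -0.75 on KO 24 h and -3.87 on WT 24 h (3.12). Mmp13, a collagenase gene, read -1.36 on KO 24 h and -4.45 on WT 24 h (3.09), and Hbegf, an EGF receptor ligand gene, 2.48 on KO 24 h and 0.07 on WT 24 h (2.40). All 3 were higher in KO at 0 h too, by 1.91, 2.92 and 0.94. Mmp10, a stromelysin gene, was higher on KO 24 h than on WT 24 h by at least 9.98-fold. Il6, an inflammatory cytokine gene, went the other way at -2.21, and Fgf7 stood at -0.56. Vegfa stood at -0.60 by its brighter probe and 0.25 by its other, so its direction was not settled.

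Over time in WT, 4 of 15 of these target genes were lower at 24 h and 2 higher, beside 5.57% and 15.8% of all genes, and the median was -0.02. In KO, 6 of 16 were higher and 1 lower, beside 9.57% and 10.9% of all genes, and the median was 0.59. Of those 6, Cd44 (1.18) had other probes down to -0.19. Mmp3, another stromelysin gene, was at 2.34 in KO and 0.41 in WT, and Mmp9, a gelatinase gene, at 2.06 in KO and 1.19 in WT. Il6 was at -5.38 in KO and -2.37 in WT. In the change of KO minus that of WT, 8 of 15 were at least 2-fold higher and 1 lower, beside 4.77% and 13.3% of all genes, with a median of 1.09. Cd44, among the 8 at 1.19, had other probes down to 0.87.

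Egr target genes, 9 entries that were all measured, held 3 genes at least 2-fold higher at 24 h than at 0 h in KO and 1 lower, beside 9.57% and 10.9% of all genes. In WT 1 was higher and 0 lower, beside 15.8% and 5.57%. Nab2, a co-repressor induced by Egr factors that feeds back on them, was at 1.49 in KO and 0.59 in WT. Pdgfb, a growth factor gene, was at 1.12 in KO by its brighter probe and at 0.27, under the call, by its second. Mmp14, a membrane protease gene, was at 1.01 in KO and 1.15 in WT. Tgfb1 was the gene lower in KO, at -1.45. Between genotypes at 24 h, 1 of 9 was lower, Mmp14 at -1.38, and 0 were higher, beside 12.2% and 5.79% of all genes.

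Of 16 kinases and factors upstream of these genes, 1 was at least 2-fold lower at 24 h in each genotype, Rps6ka1, which encodes the kinase RSK1, at -2.11 in KO and -1.35 in WT, and 0 were higher. The shares over all genes were 10.9% lower and 9.57% higher in KO, and 5.57% and 15.8% in WT, so the count is near or below the share over all genes. Between genotypes at 24 h, 2 were higher in KO and 2 lower, beside 5.79% and 12.2% of all genes, and all 4 calls depended on the probe. Srf, the factor of the CArG box, was at 1.32, although its second probe gave -0.24, and Elk3, a ternary complex factor gene, read 3.02 on KO 24 h and 1.91 on WT 24 h, with differences of 0.55 to 1.30 over its 3 probes. Mapk9, a JNK kinase gene, was lower at -1.16, with -0.25 by its other probe, and Rps6ka3, a kinase gene, at -1.02, with -0.23 at the other end of its 3 measured probes. Among bZIP partners and Egr co-repressors, 1 of 11 was lower at 24 h in KO (Mafk, at -1.52) and 1 higher (Nab2), beside 10.9% and 9.57% of all genes. In WT 1 was lower (Mafk, at -1.10) and 2 higher, Batf3 at 3.57 and Batf2 at 1.15, beside 5.57% and 15.8%. Both of the higher genes were dim on WT 0 h, at -6.47 (Batf3) and -5.07 (Batf2), below that array's median gene at -4.37. Batf, a lymphoid and myeloid partner of Jun proteins, was at least 353-fold lower at 24 h in KO and at least 123-fold lower in WT.

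Across the 4 arrays each member measured on all of them was matched to the genes of most similar profile, by the Euclidean distance of the 4 levels after centring each gene on its own mean, over 12838 candidate genes. Fos lay closest to Aldh1l1 (0.13), Arhgap4 (0.17) and Tnfaip8l2 (0.17), and Fosb to Fermt3 (0.16), Skap1 (0.19) and Arhgap9 (0.21). Fosl1 lay closest to Efnb2 (0.22), and its next nearest, P2ry10b (0.37) and Sgk1 (0.38), were farther off. Jun lay closest to Cfap45 (0.25), Junb to Itm2c (0.09), Jund to Ctsf (0.04), Fosl2 to Slc8a3 (0.05), and Egr2 to Tiam1 (0.23). Egr1 lay closest to Tnfaip8 (0.27), followed by the immediate early genes Dusp1 and Ier2 (0.31 each). No member was among the 3 nearest genes of another, and with 4 arrays such likeness is a description only.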

How the data were processed

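RNA of 4 groups was hybridised to 4 arrays of Agilent design 026655 on 1 slide, 1 array per group, with 200 ng of RNA labelled per the labels' protocols. Per the file headers, the scanner files hold spot intensity from Agilent Feature Extraction 12.1.1.1, background-subtracted by spatial detrending, with probe positions on mm9. In the deposited value table each value is a ratio of processed signal to the array's 75th percentile, so it is linear, not centred, and in the direction of signal; its column medians were 0.0334, 0.0452, 0.0483 and 0.0442 on KO 24 h, WT 24 h, KO 0 h and WT 0 h.

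From the deposited intensity, log2 was taken and each array's 75th percentile over 43020 non-control spots was subtracted, outlier spots left out; spots of a probe were averaged, and of 39429 probes 29104 were named by accession through the RefSeq table of GRCm38.p6. A gene took its probe of highest mean signal. Measured genes are those well above background, and unsaturated, on all arrays compared. Whether probes lie in exons or UTRs was not looked up, as no mm9 annotation was used here. Alternatives used limma 3.58.1 in R 4.3.3 (quantile, and normexp with offset 50), and calculations used Python 3.11.15, tested on simulated data. The number of arrays limits the precision. All members were named, with up to 3 genes at each end of each list and the 3 most alike genes of each member. The members, lists, motifs and tests were chosen with earlier results of these data known.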

Additional observations from a re-analysis of the deposited data

Results flagged for a closer look

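Fosl1 differed between 24 h and 0 h in opposite directions in the genotypes, by 0.86 in KO and -1.16 in WT (log2, SE 0.20 each). Each was beyond 1.96 SE of spot error. When the arrays were centred on the median level of the fibroblast markers the KO value became -0.54, so both genotypes were then lower at 24 h. Those levels, 3.26 on KO 24 h and 1.85 on KO 0 h, lie further apart than the markers' own median difference of 0.80. The sign in KO thus depended on how the centring was done. Fos differed between KO and WT in opposite directions at the 2 times, by -1.31 at 24 h and 0.74 at 0 h. With 1 array per group the difference between these effects was not tested, and the cause was not tested.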

How the results depend on the processing

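No paired analysis was possible because each group has 1 array. Of 47 member differences, 21 passed 2-fold, and 19 of these kept their sign and passed 2-fold in every alternative run. The others were Junb (change in KO minus change in WT) with normexp (-0.88) and Fosl1 (the same difference, 0.95) when centred on fibroblast markers. Many alternatives could not alter a call. Filters on dim genes left the values unchanged, the deposited table differs only by its percentile, and averaging probes could change only Fosl2. Only quantile normalization, normexp and fibroblast centring could move a called difference appreciably. For KO 0 h minus WT 0 h, the members called numbered 1 in the reported analysis, where 1883 of 20317 genes were higher and 833 lower. With quantile normalization they numbered 2, where 1395 genes were higher and 1002 lower. Centred on fibroblast markers they numbered 10, where 11191 genes were higher and 211 lower. Among genes whose mean signal over the arrays is above 0, a subset chosen after seeing the data, they numbered 0. Of those 7903 genes, 139 were higher and 251 lower. Centring on fibroblast markers moved the member medians to -3.84 (KO 24 h minus KO 0 h), 1.73 (KO 0 h minus WT 0 h) and -1.73 (change in KO minus change in WT). Among genes of mean signal above 0, the member medians were -1.61 (KO 24 h minus KO 0 h) and -0.0089 (change in KO minus change in WT). The second of these differences had 2 members called, where 2.94% of such genes were lower and 3.64% higher. The cause was not tested, except that fibroblast centring shifts every gene: it moved the median of all genes from 0.23 to -1.17, 0.05 to 1.07 and 0.04 to -1.04 in these 3 differences. It takes off each array's median marker level. The markers' own median differences were smaller than these shifts, at 0.80, -0.37 and 0.20 in the same order. The split of all called genes depended on scaling. The share higher was 46.8% in the reported analysis and 61.2% with quantile normalization for KO 24 h minus KO 0 h, 73.9% and 41.8% with normexp for WT 24 h minus WT 0 h, 32.1%, 46.5% (quantile) and 52.0% (normexp) for KO 24 h minus WT 24 h, 69.3%, 58.2% and 59.1% for KO 0 h minus WT 0 h, and 26.5%, 46.0% and 41.0% for the change in KO minus that in WT. Centred on fibroblast markers, it was 0.347%, 51.9%, 28.1%, 98.1% and 0.864% in that order. With normexp, fewer genes were called for WT 24 h minus WT 0 h (514 higher and 715 lower, against 3033 and 1070). Signals near background, such as Egr3, limit the differences that can be seen.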
